A study of Homo sapiens with 2 samples.

Results

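PAGE1-low cells were defined in LNCaP_C4-2B, a castration-resistant strain of the human prostate carcinoma line LNCaP, as the 185 of 1850 cells with the lowest PAGE1 transcript level. Each cell's PAGE1 UMIs (unique molecular identifiers, one per captured RNA molecule) were divided by its total UMIs and given as counts per 1000000 (CPM). Members were thus chosen by their measured PAGE1 level. The 185 PAGE1-high cells with the highest values served for comparison, and 1480 middle cells lay between them. Both groups came from 1 library of untreated cells of the same strain, grown in RPMI1640 with fetal bovine serum and antibiotics. A library of the parental line LNCaP_FGC, also 1850 cells in the same medium, completes the series of 3700 cells. It carries another batch label, and wherever the lines are set side by side the strain and the batch cannot be told apart. With a single library per strain there are no replicates, since its cells share that library, and differences are described without a significance test. The intervals given are exact 95% intervals that cover counting error only.

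PAGE1 is an X-linked cancer-testis antigen gene of the GAGE and PAGE family. Such genes are normally transcribed in testis, are kept silent in most other adult tissues by DNA methylation, and are active again in many tumors. Several stress programs recur in the values below. Hypoxia-inducible factors switch on glycolytic enzymes and genes that limit mitochondrial respiration when oxygen is short, metallothioneins bind zinc and copper and are switched on by the metal-sensing factor MTF1, and the p53 target CDKN1A blocks cyclin-dependent kinases and so holds cells out of S phase.

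PAGE1 itself chose the groups, and its values are given only to show where the limits fell. The PAGE1-low cells had 0 to 16 PAGE1 UMIs (median 6) and the PAGE1-high cells 13 to 65 (median 23). The last cell inside the PAGE1-low group had 505.9 CPM and the first cell outside it 506.1 CPM, while the PAGE1-high group began at 1255.7 CPM with the next cell at 1255.6 CPM. The limits cut a continuous, single-peaked distribution with a median of 867.8 CPM, so the groups are ranges of a level and not cell types. In all, 117 cells lay within 10% of the lower limit, 51 of them members. Of the 185 members, 114 had a Poisson interval wholly below the library level of 880.9 CPM. In 3 cells no PAGE1 UMI was counted.

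**Figure D1:**
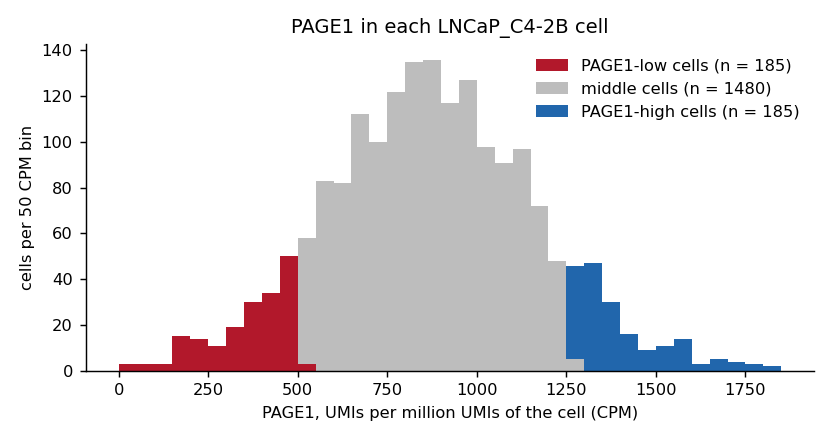
Histogram of the PAGE1 level of the 1850 LNCaP_C4-2B cells, in CPM (x axis), as cells per bin (y axis), with PAGE1-low, middle and PAGE1-high cells in separate colors. The distribution has 1 peak, and the limits at 505.9 and 1255.7 CPM lie on its flanks.

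PAGE1-low cells were shallower than the middle cells, as were PAGE1-high cells. They held 9593 to 47361 UMIs (median 15103), against 9593 to 48630 (median 17955) in middle cells and 9708 to 46737 (median 16080) in PAGE1-high cells. The median number of genes per cell was 3680, 4214.5 and 3869 in the same order, and 3233.5, 3353 and 3271 after all cells were thinned to 11901 UMIs. Mitochondrial transcripts took 8.36% of UMIs in PAGE1-low and 8.38% in PAGE1-high cells, and ribosomal protein transcripts 28.9% and 28.8%. No barcode was shared between the libraries.

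PAGE1-low cells carried the markers of prostate luminal cells and of their own strain. KLK3, which encodes prostate-specific antigen, had at least 1 UMI in 100% of cells of both groups, and KRT8 and EPCAM were detected in both. ETV1, TMEFF2 and MT1G had 0 UMIs in PAGE1-low and in PAGE1-high cells, which allows up to 0.993 CPM and 0.891 CPM at 3 counts, and stood at 154, 163 and 158 CPM in LNCaP_FGC. Summed markers of fibroblasts were at 1.65 CPM in PAGE1-low and 2.97 CPM in PAGE1-high cells, with 7 and 6 of the 10 markers at 0. Immune markers summed to 2.65 and 1.48 CPM with 11 of 12 at 0 in each group, and endothelial and erythroid markers to 1.32 and 1.19 CPM with 8 of 10 at 0 in each. The list of markers of other epithelia summed to 38.0 and 40.1 CPM, nearly all from TTF1 (36.4 and 39.2 CPM). TTF1 encodes a transcription termination factor and does not mark an epithelium, so this sum says little about other epithelia.

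The regulatory sequences of 5 genes that stood out in PAGE1-low cells, chosen after their values were seen, are shown because their families are textbook targets of MTF1 and of hypoxia-inducible factors. Each is the stretch of 250 bases directly before the RefSeq transcription start (GRCh38.p14), written 5′ to 3′ on the gene's strand. MT2A (chr16:56608334-56608583, plus strand) and MT1X (chr16:56682220-56682469, plus strand) encode metallothioneins, and capitals mark the core of the metal response element, TGCACNC or TGCGCNC, on either strand.
MT2A: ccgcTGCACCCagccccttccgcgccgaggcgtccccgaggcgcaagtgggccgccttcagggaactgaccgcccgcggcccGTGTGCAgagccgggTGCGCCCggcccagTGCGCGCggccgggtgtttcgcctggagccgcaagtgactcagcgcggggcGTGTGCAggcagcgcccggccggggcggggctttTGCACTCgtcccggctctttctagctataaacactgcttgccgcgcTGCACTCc
MT1X: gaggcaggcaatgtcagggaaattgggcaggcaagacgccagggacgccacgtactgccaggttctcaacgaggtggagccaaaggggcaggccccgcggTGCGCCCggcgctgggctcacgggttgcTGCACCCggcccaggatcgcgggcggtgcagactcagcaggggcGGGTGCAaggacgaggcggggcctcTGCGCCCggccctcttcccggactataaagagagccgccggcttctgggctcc
ENO2 (chr12:6914330-6914579, plus strand) and ALDOC (chr17:28576896-28577145, minus strand) encode the glycolytic enzymes enolase 2 and aldolase C, and ANKRD37 (chr4:185396591-185396840, plus strand) encodes an ankyrin repeat protein. In these, capitals mark the core of the hypoxia response element, ACGTG or GCGTG, on either strand, and a palindromic CACGTG counts once on each strand.
ENO2: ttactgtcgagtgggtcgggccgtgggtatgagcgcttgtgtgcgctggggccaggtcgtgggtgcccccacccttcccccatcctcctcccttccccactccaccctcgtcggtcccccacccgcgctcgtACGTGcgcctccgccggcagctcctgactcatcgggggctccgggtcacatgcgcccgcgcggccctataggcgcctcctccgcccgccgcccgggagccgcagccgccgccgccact
ALDOC: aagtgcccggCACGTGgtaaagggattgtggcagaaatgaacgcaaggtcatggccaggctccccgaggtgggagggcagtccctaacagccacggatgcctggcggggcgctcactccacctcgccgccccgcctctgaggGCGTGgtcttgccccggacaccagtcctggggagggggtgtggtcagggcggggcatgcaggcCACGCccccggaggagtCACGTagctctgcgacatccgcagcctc
ANKRD37: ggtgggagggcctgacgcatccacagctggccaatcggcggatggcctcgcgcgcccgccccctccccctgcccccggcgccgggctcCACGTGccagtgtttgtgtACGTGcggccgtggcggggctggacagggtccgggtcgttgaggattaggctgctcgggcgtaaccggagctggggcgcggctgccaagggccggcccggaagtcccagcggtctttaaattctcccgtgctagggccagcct

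The metal core occurred 7 times in the MT2A window and 4 times in that of MT1X. Of 35116 human promoter windows of the same length, 24.8% held it at least once, 130 (0.370%) at least 4 times and 11 (0.0313%) at least 7 times. The hypoxia core occurred once before ENO2, 5 times before ALDOC and 3 times before ANKRD37, but at 5 letters it was present in 43.2% of all windows and in 59.1% of the windows of measured genes. For the glycolysis and hypoxia list described below, 27 of 31 measured genes matched a window by symbol, and 60.0% of their windows held the core, close to the share of measured genes. Of the genes at least 1.5-fold lower in PAGE1-low cells, 264 of 318 matched, and 61.3% of their windows held the hypoxia core and 31.8% the metal core, which was in 33.9% of the windows of measured genes. A match describes the letters only.

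Of 6095 genes measured (a sum of 100 UMIs or more in the groups compared), 436 (7.15%) were at least 1.5-fold higher in PAGE1-low than in PAGE1-high cells and 318 (5.22%) at least 1.5-fold lower. The interval excluded a ratio of 1 for 435 of those higher and for 318 of those lower. The median log2 ratio of all these genes was -0.02. Counts within the gene lists below are to be read beside the shares of 7.15% higher and 5.22% lower. Larger differences were mostly upward, with 91 genes at least 2-fold higher against 15 lower, and 26 genes at least 3-fold higher against 0 lower. Against all other cells of the library, 156 of 6475 genes (2.41%) were higher and 228 (3.52%) lower by the same fold. With other scaling factors the balance of directions turned: 57.8% of the genes past 1.5-fold were higher as given, 46.1% with TMM factors and 36.0% with median-of-ratios factors. Those factors set the median log2 ratio of all genes at -0.07 and -0.11.

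**Figure D2:**
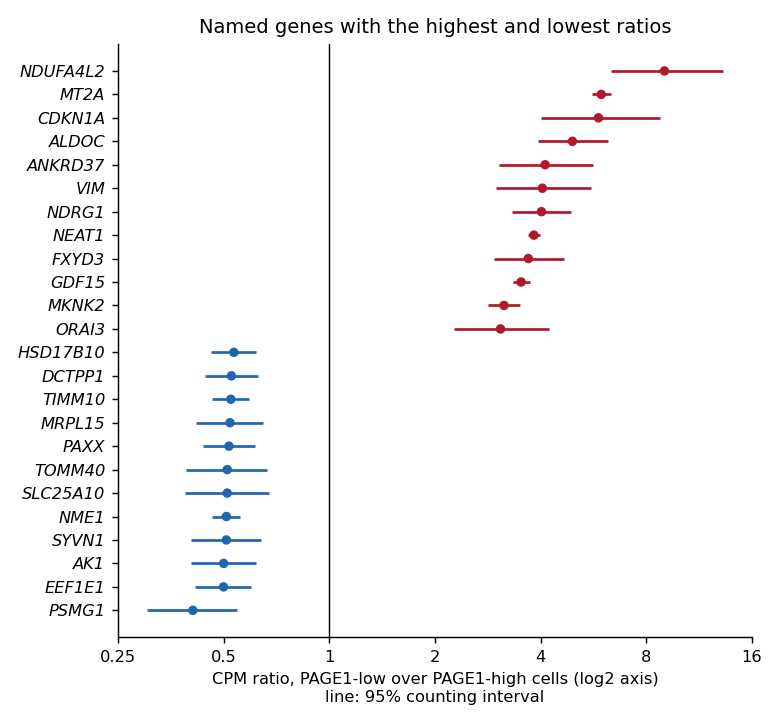
Ratio of summed CPM in PAGE1-low over PAGE1-high cells (x axis, log2 scale) for the 12 highest and the 12 lowest genes named by rule (y axis), with lines for the 95% counting intervals. The higher genes reach 9.01 (NDUFA4L2), while the lower ones span 0.41 to 0.53.

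Genes of the hypoxia and glycolysis program were higher in PAGE1-low cells. NDUFA4L2, a hypoxia-inducible inhibitor of respiratory complex I activity, stood at 93.6 CPM in PAGE1-low, 18.9 CPM in middle and 10.4 CPM in PAGE1-high cells. That was 9.01-fold higher in PAGE1-low than in PAGE1-high cells (95% interval 6.33 to 13.2), the highest of the 12 genes ranked by ratio. ENO2 had 96 UMIs in PAGE1-low and 4 in PAGE1-high cells, 31.8 against 1.19 CPM (26.7-fold, 10.1 to 100.1). It was counted in 27.6% of PAGE1-low and 2.16% of PAGE1-high cells, and in 22.9% and 1.19% at equal depth. ENO2, which stood at 4.83 CPM in middle cells, belongs to the list of neuroendocrine and neuronal markers as neuron-specific enolase. Of the 4 measured genes of that list 2 were higher and 0 lower (median log2 ratio 0.90). DLL3 was at 47.0 and 64.1 CPM and NOVA1 at 157 and 174 CPM. With 96 and 4 UMIs, ENO2 met the minimum of 100 UMIs only through its PAGE1-low counts. The count of genes and the list median therefore depend on the filter, and the median was negative at the other count minimums. The median was also negative without the decile of cells highest in MALAT1 (-0.21) or in glycolysis and hypoxia genes (-0.10). ALDOC reached 139 CPM in PAGE1-low and 28.2 CPM in PAGE1-high cells (4.93-fold, 3.93 to 6.22), and ANKRD37 68.5 and 16.6 CPM (4.12-fold, 3.05 to 5.64). NDRG1, induced both by hypoxia and by androgen, was at 165 and 41.0 CPM (4.02-fold, 3.32 to 4.89).

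Of the 31 measured genes of the glycolysis and hypoxia list, 16 were at least 1.5-fold higher in PAGE1-low cells, 0 were lower, and 30 had a ratio above 1. The list median was 0.66 on the log2 scale, beside -0.02 for all genes, and the summed level was 17976 CPM in PAGE1-low against 12322 CPM in PAGE1-high cells (1.46-fold, 1.44 to 1.48). PGK1, the glycolytic phosphoglycerate kinase, was at 1614 and 713 CPM (2.26-fold, 2.16 to 2.38). Other members, picked after their values were seen, span the program. P4HA1, a collagen prolyl hydroxylase, was at 256 and 85.2 CPM. The mitophagy receptors BNIP3L and BNIP3 were at 295 against 123 CPM and at 1358 against 692 CPM. VEGFA, the angiogenic growth factor, was at 165 and 69.5 CPM, and PDK1, which holds pyruvate out of the mitochondria, at 69.8 and 37.4 CPM. The list was not uniform: DDIT4, a stress-induced inhibitor of mTORC1, was level (387 and 386 CPM), and PFKM, a phosphofructokinase, stood at 51.3 and 58.5 CPM.

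The metallothioneins were spread very unevenly from cell to cell. MT2A summed to 2179 CPM in PAGE1-low and 366 CPM in PAGE1-high cells (5.95-fold, 5.6 to 6.33), and MT1X to 749 and 156 CPM (4.796-fold, 4.36 to 5.28). The median PAGE1-low cell, however, had 161.8 CPM of MT2A and the median PAGE1-high cell 180.1 CPM, and MT2A was counted in 80.5% and 92.4% of cells. The excess lay in a minority. Percentile 90 of MT2A was 8363 CPM in PAGE1-low against 485 CPM in PAGE1-high cells, the highest single cells had 44022 and 10436 CPM, and the top 5 PAGE1-low cells held 32.5% of the group's MT2A and 34.1% of its MT1X UMIs. The difference was mostly in cells called G1, where the log2 ratio was 2.86 for MT2A and 2.54 for MT1X. In S it was 0.45 for MT2A and -1.92 for MT1X, and in G2M 0.76 and 0.08. These genes have near-identical relatives, so reads may have been split between them or lost in counting.

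**Figure D3:**
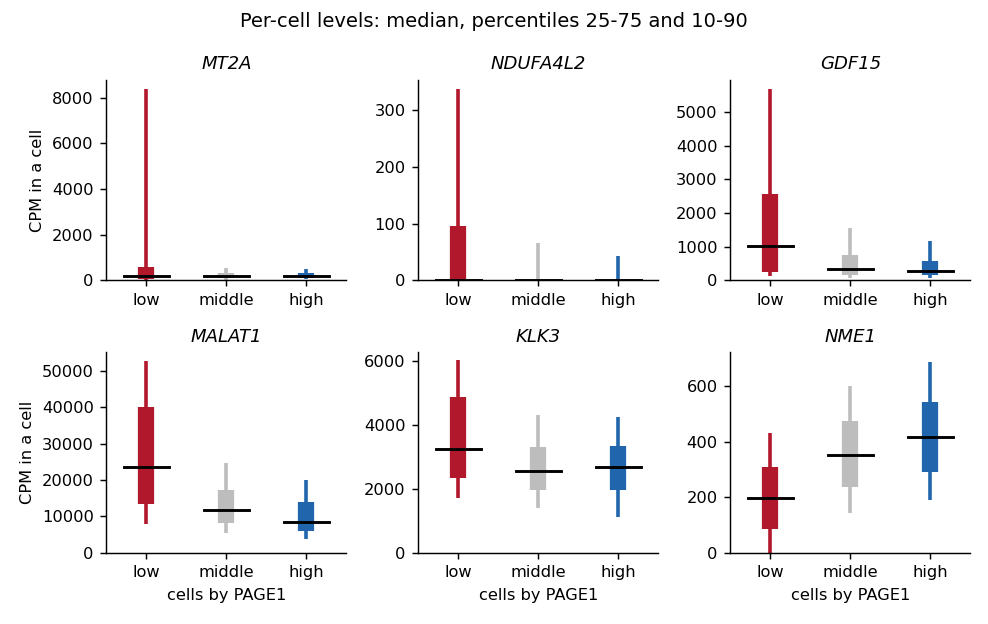
Level per cell (y axis, CPM, each panel from 0) of 6 genes in PAGE1-low, middle and PAGE1-high cells (x axis), with the median as a black line, percentiles 25 to 75 as a thick bar and 10 to 90 as a thin line. For MT2A the medians are alike (161.8 and 180.1 CPM in PAGE1-low and PAGE1-high cells) while percentile 90 reaches 8363 CPM in PAGE1-low cells, whereas GDF15, MALAT1 and NME1 shift as a whole.

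Some growth-arrest genes and the stress cytokine gene GDF15 were higher in PAGE1-low cells. CDKN1A was at 57.2 CPM in PAGE1-low, 15.96 CPM in middle and 9.80 CPM in PAGE1-high cells (5.84-fold low over high, 4.01 to 8.75), but the top 5 PAGE1-low cells held 43.9% of its UMIs. CDKN1C, an imprinted gene encoding the related inhibitor p57, was at 37.1 and 3.86 CPM (9.60-fold, 5.39 to 18.6). GDF15, a secreted stress cytokine induced by p53 and by ATF4, was at 1728 CPM in PAGE1-low and 491 CPM in PAGE1-high cells (3.52-fold, 3.33 to 3.72). Its per-cell median was 1004 CPM in PAGE1-low against 280 CPM in PAGE1-high cells, so the shift was not confined to a few cells. Of 17 measured apoptosis and p53 target genes, 7 were higher and 0 lower (median log2 ratio 0.49), GADD45A (43.7 and 20.5 CPM) and MDM2 (77.7 and 51.7 CPM) among the higher and BAX level at 61.9 and 70.7 CPM. The list median was 0.16 without the decile of cells highest in MALAT1 and 0.18 without that highest in glycolysis and hypoxia genes, and the log2 ratio of CDKN1A, 2.55 over all members, was 1.03 and 1.78. In the same order the log2 ratio was 1.22 and 0.80 for GDF15 and 1.91 and 1.83 for CDKN1C, all smaller than in the full groups. Of 14 cell cycle inhibitor genes, a list added after values had been seen, 7 were higher and 0 lower (median 0.60), including the antiproliferative BTG1 at 778 and 390 CPM and CDKN1B at 55.3 and 35.3 CPM. The median of that list was 0.34 without the MALAT1 decile and 0.41 without the glycolysis and hypoxia decile.

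The integrated stress response list was near even by count of genes. Its summed level was 8352 CPM in PAGE1-low and 6015 CPM in PAGE1-high cells. Of its 36 measured genes 3 were higher (8.33%) and 1 was lower (2.78%), and the list median was -0.08. Over all genes the shares were 7.15% higher and 5.22% lower, so these counts do not set the list apart. The median cell held 7045 CPM of the list in PAGE1-low and 5888 CPM in PAGE1-high cells. The higher members were GDF15, VEGFA and NUPR1, a gene for a small chromatin-associated stress protein at 2143 and 801 CPM (2.67-fold, 2.56 to 2.80), and the lower one was the serine synthesis gene PSPH (49.3 and 78.7 CPM). WARS, a tRNA synthetase gene activated by ATF4, was at 26.1 and 34.4 CPM. The unfolded protein response list was likewise near even (1 of 30 higher, 2 lower, median -0.03).

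The nuclear long noncoding RNAs MALAT1 and NEAT1 were higher in PAGE1-low cells. MALAT1 was at 25696 CPM in PAGE1-low, 13653 CPM in middle and 9985 CPM in PAGE1-high cells (2.57-fold low over high, 2.54 to 2.61), with per-cell medians of 23732 CPM in PAGE1-low and 8597 CPM in PAGE1-high cells. NEAT1, the scaffold of paraspeckles, was at 4205 and 1099 CPM (3.83-fold, 3.69 to 3.97). Of 20 measured long noncoding RNAs, 4 were higher and 0 lower (median 0.26), while SNHG15 was at 39.4 and 45.4 CPM and JPX at 32.4 and 40.1 CPM. Both RNAs stay in the nucleus. The amount of cytoplasmic RNA per barcode was not measured, and its part in these differences was not tested. Leaving out the decile of the library highest in MALAT1 took 76 of the PAGE1-low and 3 of the PAGE1-high cells, and the differences named here became smaller. NDUFA4L2 then had a log2 ratio of 2.68, MT2A 1.11, ALDOC 1.22 and NME1 -0.70. The glycolysis and hypoxia list had a median of 0.50, beside 0.66 in the full groups. Of 5451 genes then measured, 218 were higher and 91 lower, beside 436 and 318 of 6095 in the full groups.

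A minority of luminal and androgen-regulated genes was higher in PAGE1-low cells and 0 were lower. KLK3 was at 3494 CPM in PAGE1-low and 2619 CPM in PAGE1-high cells (1.33-fold, 1.30 to 1.37), and KLK2, its neighbor in the kallikrein cluster, at 1176 and 623 CPM (1.89-fold, 1.79 to 1.99). Without the decile highest in MALAT1 their log2 ratios were 0.25 and 0.60. Without the decile highest in glycolysis and hypoxia genes they were 0.18 and 0.53. Of 33 androgen-induced genes, 12 were higher and 0 lower (median 0.45), among them TMPRSS2, the prostate serine protease gene, at 248 and 137 CPM and MAF, a transcription factor gene, at 51.9 and 13.4 CPM. MAF was not uniform over phases, with log2 ratios of 2.14 in G1, -2.71 in S and 2.25 in G2M. At the other end of the list, PLPP1 was at 135 and 186 CPM. Of 20 luminal markers, 5 were higher and 0 lower (median 0.37), with KRT19 at 60.2 and 22.6 CPM and the desmosome gene DSP at 361 and 167 CPM, while AGR2 was at 30.4 and 44.8 CPM and EPCAM at 60.5 and 81.4 CPM. The luminal median was 0.14 without the MALAT1 decile and 0.26 without the glycolysis and hypoxia decile. The androgen-induced median was 0.31 and 0.52 in the same order. VIM, the intermediate filament gene of mesenchymal cells, was at 64.8 and 16.03 CPM (4.04-fold, 2.98 to 5.57) and FN1, fibronectin, at 187 and 121 CPM (1.54-fold, 1.36 to 1.76).

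Other genes named by rule at the upper end were FXYD3, a regulator of the sodium pump (110 and 29.7 CPM, 3.69-fold, 2.94 to 4.66), MKNK2, a kinase of translation factor eIF4E (436 and 139 CPM, 3.14-fold, 2.83 to 3.502), and ORAI3, a calcium channel subunit (52.9 and 17.2 CPM, 3.07-fold, 2.26 to 4.23). HIST1H2BD was at 37.1 and 5.64 CPM (6.57-fold, 4.02 to 11.3), with log2 ratios of 4.13 in G1, 0.50 in S and 0.62 in G2M. The bulk replication histone HIST1H4C was at 1218 and 1425 CPM.

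The genes that were lower in PAGE1-low cells had smaller differences, and those ranked lowest by the naming rule had varied roles, with several mitochondrial proteins among them. PSMG1, a proteasome assembly chaperone, was at 21.8 CPM in PAGE1-low, 40.0 CPM in middle and 53.4 CPM in PAGE1-high cells (2.45-fold lower than in PAGE1-high cells, 1.84 to 3.30). NME1, a nucleoside diphosphate kinase, was at 222 and 436 CPM (1.96-fold lower, 1.79 to 2.15), with per-cell medians of 198.6 CPM in PAGE1-low and 417.8 CPM in PAGE1-high cells. The mitochondrial import genes TOMM40 (28.1 and 54.9 CPM) and TIMM10 (134 and 256 CPM), the mitochondrial carrier SLC25A10 (26.1 and 51.1 CPM), the mitochondrial ribosomal protein MRPL15 (41.0 and 78.7 CPM) and the mitochondrial dehydrogenase HSD17B10 (90.7 and 170 CPM) were 1.87-fold to 1.95-fold lower. Also lower were PAXX, a DNA end-joining factor (67.5 and 130 CPM), DCTPP1, a nucleotide pyrophosphatase (64.8 and 123 CPM), SYVN1, a ubiquitin ligase of the endoplasmic reticulum (36.7 and 72.1 CPM, 1.96-fold), AK1, adenylate kinase (42.02 and 84.03 CPM, 2.00-fold), and EEF1E1, a subunit of the tRNA synthetase complex (57.6 and 115 CPM, 2.00-fold).

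As a group, the 72 nuclear genes of oxidative phosphorylation had a median log2 ratio of -0.34, with 0 higher, 9 lower and 2 above a ratio of 1. Their summed level was 24060 CPM in PAGE1-low and 29881 CPM in PAGE1-high cells (1.24-fold lower, 1.230 to 1.254). ATP5MC1, a subunit of the ATP synthase ring, was at 315 and 552 CPM and CYC1, cytochrome c1, at 156 and 260 CPM, while ATP5MC2 (456 and 433 CPM) and UQCR11 (622 and 586 CPM) were level. The 13 mitochondrially encoded genes differed by less than 1.5-fold in either direction, with a summed level of 83568 CPM in PAGE1-low and 83758 CPM in PAGE1-high cells.

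The next lists were added after values had been seen, so their counts, and the later uses of the ribosome biogenesis list, are descriptions. Mitochondrial ribosomal protein genes had a median of -0.44 (1 of 75 higher, 17 lower), mitochondrial import genes -0.45 (0 of 28 higher, 7 lower), proteasome subunits -0.44 (0 of 34 higher, 10 lower), the cytosolic chaperonin and prefoldin genes -0.49 (0 of 14 higher, 3 lower) and ribosome biogenesis genes -0.41 (0 of 80 higher, 15 lower). Ribosome biogenesis genes summed to 6748 CPM in PAGE1-low and 8775 CPM in PAGE1-high cells (1.30-fold lower, 1.28 to 1.32). Cytosolic ribosomal protein genes did not share this, with a median of 0.02 (0 of 82 higher, 1 lower) and summed levels of 289183 and 287985 CPM. Among heat shock genes, 3 of 17 were lower and 2 higher (median -0.12). The lower ones were the chaperones HSPH1 (96.3 and 174 CPM), HSPE1 (345 and 584 CPM) and HSPD1 (1310 and 1982 CPM), and the higher ones were the AP-1 genes JUND (483 and 250 CPM) and JUNB (27.5 and 16.9 CPM).

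More PAGE1-low cells were called G1 from their transcripts, but this depended on how the cells were chosen. The PAGE1-low group had 123 of 185 cells in G1 (66.5%, 59.2 to 73.2). Only 21 cells were in S (11.4%, 7.17 to 16.8), and 41 were in G2M (22.2%, 16.4 to 28.8). Middle cells were 46.1% G1, 22.4% S and 31.6% G2M, and PAGE1-high cells 53.5% G1 (46.0 to 60.9), 20.5% S and 25.9% G2M. Of 30 S phase genes 6 were lower and 0 higher (median -0.32), among them MCM5 (23.2 and 45.1 CPM) and MCM6 (13.2 and 25.5 CPM) of the replicative helicase, with RRM2 at 60.5 and 46.9 CPM. The G2M list was even in sum (4970 CPM in PAGE1-low and 5074 CPM in PAGE1-high cells, median 0.10), with NEK2 at 38.0 and 21.4 CPM and CENPA at 12.2 and 19.6 CPM, but the median cell held 1672 CPM of it in PAGE1-low against 3691 CPM in PAGE1-high cells. With phase called on both libraries together, 65.4% of PAGE1-low and 49.7% of PAGE1-high cells were in G1. For the lowest and highest 5% of cells the shares were 76.1% and 53.3%. When cells were thinned to equal depth and ranked anew, 51.2% of PAGE1-low and 47.0% of PAGE1-high cells were in G1. With PAGE1 taken over UMIs without ribosomal protein and mitochondrial genes the shares were 62.7% and 60.5%, and for the lowest and highest 20% of cells 57.8% and 54.3%. Without the decile highest in MALAT1 the shares were 51.4% and 52.7%, and without the decile highest in the glycolysis and hypoxia list 56.3% and 53.1%. When both groups were drawn within each phase, which sets their phase shares equal, the S list median was 0.10 while the glycolysis and hypoxia list kept 0.68 and the oxidative phosphorylation list -0.31.

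Much of the PAGE1-low group coincided with other extreme deciles of the library. The decile of cells highest in NEAT1 included 80 of 185 PAGE1-low cells (43.2%, 36.0 to 50.7) and 6 PAGE1-high cells (3.24%), and that highest in MALAT1 76 (41.1%) and 3 (1.62%). The decile highest in the glycolysis and hypoxia list included 73 PAGE1-low cells (39.5%, 32.4 to 46.9), 104 of 1480 middle cells (7.03%) and 8 PAGE1-high cells (4.32%). The decile highest in MT2A and MT1X included 47 (25.4%) and 13 (7.03%), that highest in the integrated stress response list 49 (26.5%, 20.3 to 33.5) and 6 (3.24%), the decile lowest in ribosome biogenesis genes 77 (41.6%) and 7 (3.78%), and the decile lowest in the S and G2M lists together 57 (30.8%) and 9 (4.86%). The opposite held for cells lowest in KLK3 (9 PAGE1-low and 29 PAGE1-high cells) and for cells highest in heat shock genes (7 and 26).

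**Figure D4:**
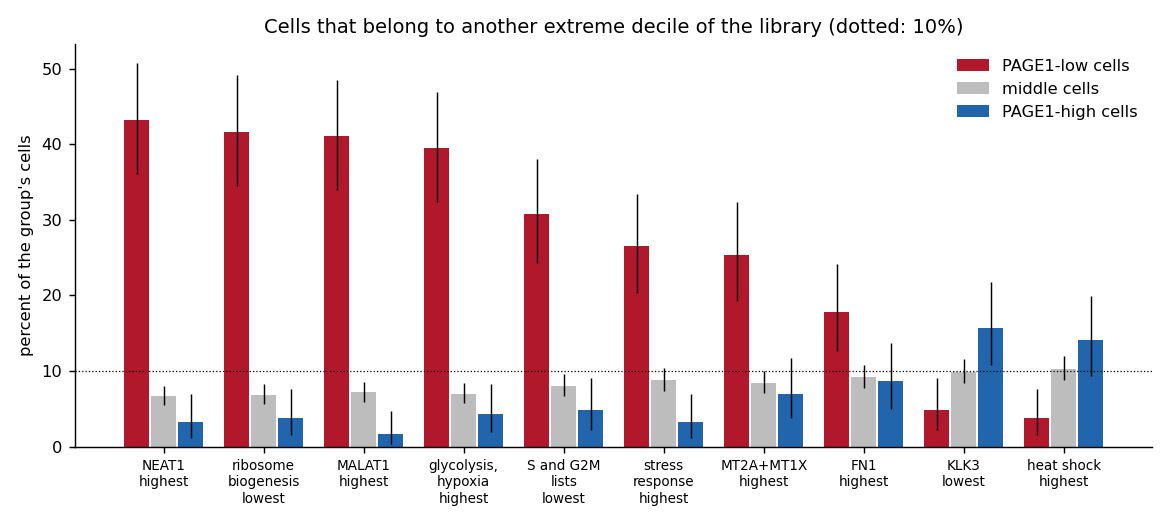
Percent of PAGE1-low, middle and PAGE1-high cells (y axis) that belong to the decile of LNCaP_C4-2B cells highest or lowest in another gene or gene list (x axis), with 95% binomial intervals as lines and the 10% expected by construction over the whole library as a dotted line. PAGE1-low cells take 43.2% for NEAT1 and 39.5% for the glycolysis and hypoxia list, but 4.86% for lowest KLK3.

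These features came together in only part of the group. In PAGE1-low cells, 39 of the 47 cells high in metallothioneins were also in the decile highest in glycolysis and hypoxia genes, and a further 34 cells were high in glycolysis and hypoxia genes alone. At the other end, 76 PAGE1-low cells (41.1%) were in none of the deciles highest in glycolysis and hypoxia genes, highest in metallothioneins or lowest in ribosome biogenesis genes, against 159 PAGE1-high cells (85.9%). Clustering without PAGE1 gave 4 clusters, and cluster 3, with 212 cells and led by NDUFA4L2, MT1X, KISS1R, MT2A and PLOD2, held 87 PAGE1-low cells (47.0%, 39.7 to 54.5) and 5 PAGE1-high cells (2.70%, 0.883 to 6.19). Cluster 0, led by the mitotic genes PTTG1 and CCNB1, held 25 (13.5%) and 80 (43.2%). Cluster 1, led by HIST1H1B and SLC7A11, held 27 (14.6%) and 59 (31.9%), and cluster 2, led by MAF, GNMT and FKBP5, 46 (24.9%) and 41 (22.2%). The clusters were built from the 3000 most variable genes without PAGE1, and their leading genes are given as a description. At resolution 0.3 a cluster of 145 cells held 75 PAGE1-low cells (40.5%) and 0 PAGE1-high cells, and at resolution 0.8 a cluster of 212 cells held 85 (45.9%) and 5 (2.70%).

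Leaving out the decile of the library highest in glycolysis and hypoxia genes kept 112 PAGE1-low and 177 PAGE1-high cells. NDUFA4L2 had a log2 ratio of 2.59 without those cells, CDKN1A 1.78, VIM 1.52, NEAT1 1.28 and MALAT1 1.00. Less was left of GDF15 (0.80), MKNK2 (0.63), PGK1 (0.58) and ANKRD37 (0.39). All of these ratios were smaller than in the full groups. These are ratios of sums, and at equal depth in the full groups NDUFA4L2 was counted in 36.8% of PAGE1-low and 8.93% of PAGE1-high cells, VIM in 43.1% and 14.3%, and CDKN1A in 22.2% and 8.33%. NME1 stood at -0.71, and the ribosome biogenesis and oxidative phosphorylation lists had medians of -0.27 and -0.26. The metallothioneins did not persist: MT2A was at 0.35 and MT1X at -0.12. The glycolysis and hypoxia list, by which these cells were removed, had a median of 0.25.

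Along the whole PAGE1 range, 2 shapes of profile appeared. In deciles of the library from lowest to highest PAGE1, MT2A was at 2179, 672 and 591 CPM in the first 3 deciles and between 266 and 405 CPM in the others. NDUFA4L2 was at 93.6 CPM in decile 1, 32.3 CPM in decile 2 and 10.4 to 22.7 CPM thereafter. The glycolysis and hypoxia list summed to 17976 CPM in decile 1 and to 12322 to 13678 CPM in the other 9, and ribosome biogenesis genes to 6748 CPM in decile 1 and 8412 to 8775 CPM in the others. MALAT1, by contrast, declined through every decile: 25696, 18551, 15959, 15123, 13281, 12481, 12172, 11618, 10576 and 9985 CPM. Nuclear oxidative phosphorylation genes climbed through every decile, with 24060 CPM in decile 1, 26306 CPM in decile 2, 27539 CPM in decile 5 and 29881 CPM in decile 10. Median depth per cell was 15103 UMIs in decile 1, 19321 in decile 6 and 16080 in decile 10.

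**Figure D5:**
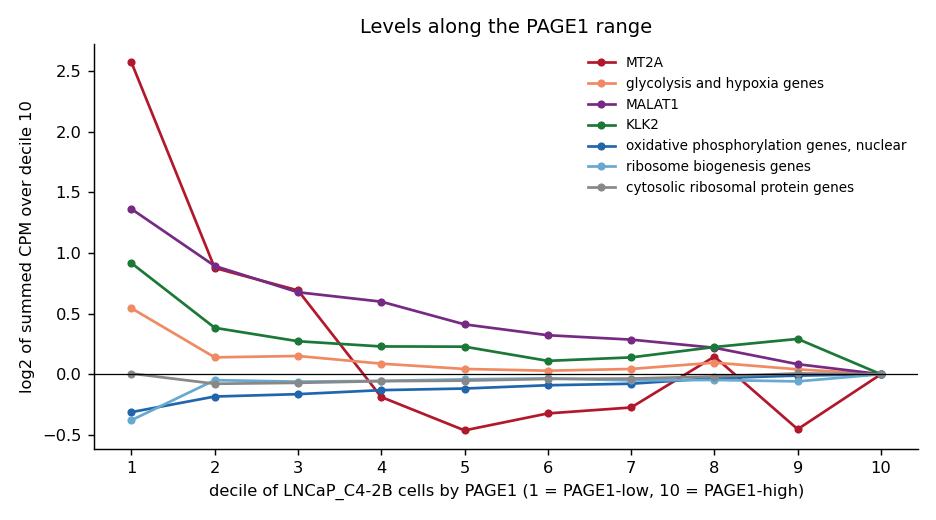
Log2 of the summed CPM in each decile of LNCaP_C4-2B cells over that in decile 10 (y axis), for deciles ordered by PAGE1 from low to high (x axis), for single genes and summed gene lists. MT2A changes mostly between deciles 1 and 4 (2179, 672, 591 and 321 CPM) and ribosome biogenesis genes between deciles 1 and 2 (6748 and 8483 CPM), while MALAT1 declines through every decile.

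PAGE1 lies on chromosome X (GRCh38, 49687447 to 49695984). The 6 genes within 1 Mb that passed the count minimum, PQBP1, TIMM17B, GRIPAP1, WDR45, PLP2 and GAGE2A, had ratios of 0.80 (TIMM17B, 50.6 and 63.5 CPM) to 1.32 (WDR45, 34.1 and 25.8 CPM). GAGE2A, of the same antigen family, was at 21.8 and 23.8 CPM, with the reservation that near-identical GAGE copies share reads. Of neighbors under the minimum, SUV39H1, a histone methyltransferase gene, had 18 and 6 UMIs (ratio 3.34, 1.27 to 10.3), OTUD5 59 and 39 (1.69, 1.11 to 2.59) and GPKOW 21 and 46 (0.51, 0.29 to 0.87). These were chosen after their values were seen, for intervals that exclude 1. The 186 measured genes of chromosome X had a median log2 ratio of -0.01, with 15 higher and 6 lower. Over all genes 7.15% were higher and 5.22% lower, so these counts do not set the chromosome apart.

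The other cancer-testis antigen genes that could be measured differed by less than 1.5-fold. Of 87 listed genes found in the data, 11 were measured, and 0 were 1.5-fold higher and 0 lower in PAGE1-low cells (median -0.12). Over all genes 7.15% were higher and 5.22% lower, so counts of 0 among 11 genes do not set the family apart. MAGEA3 was at 42.7 and 63.8 CPM (ratio 0.67, 0.53 to 0.84), SOHLH2 at 25.8 and 38.3 CPM and MAGEA1 at 48.0 and 61.2 CPM (ratio 0.78, 0.63 to 0.97), while PRAME was at 87.0 and 79.3 CPM and MAGED1 at 53.3 and 45.7 CPM. Of the 28 measured DNA methylation and Polycomb genes, 4 were higher and 0 lower (median -0.02), with MORC2 at 30.4 and 19.3 CPM and MBD4 at 34.1 and 44.8 CPM.

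Genes higher in LNCaP_C4-2B than in LNCaP_FGC did not move together toward the level of the parental line. In the list of LNCaP_C4-2B genes, which was drawn from these same libraries, 4 of 17 were higher in PAGE1-low cells, 0 lower, with PGK1, KLK2, CRIP2 (136 and 75.7 CPM) and PFKP (167 and 105 CPM) the higher ones. FUOM (73.1 and 109 CPM, with 12.2 CPM in LNCaP_FGC), HBQ1 (48.0 and 62.9 CPM, with 0.910 CPM) and SPART (126 and 164 CPM, with 2.59 CPM) lay on the other side, and KLHL35 was level (101 CPM in both). Of 16 genes in the list of those higher in LNCaP_FGC, only 2 were measured, and both lay toward the parental line (median log2 ratio 1.17). That median was 0.15 without the decile highest in MALAT1 and 0.26 without that highest in glycolysis and hypoxia genes. SNHG25 was at 293 and 222 CPM and SYT4, a synaptotagmin gene, at 28.5 and 7.42 CPM, with a UMI of SYT4 in 11.9% and 8.11% of cells. SYT4 met the count minimum mainly through its PAGE1-low counts.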

How the data were processed

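Single-cell RNA-Seq used 10x Genomics 3′ chemistry. The authors deposited UMI counts for each gene in each cell. Per the submitters' processing notes and the study's methods, the authors aligned reads to GRCh38 with Cell Ranger 6.0, filtered cells by genes, reads, hemoglobin, ribosomal and mitochondrial percent and doublet score in Seurat 5.011, drew equal cell numbers per line and thinned the counts to a common mean. The LNCaP_C4-2B matrix held 35149989 UMIs, 36601 genes and 1850 cells. Doublets were removed before deposit and none were called here.

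UMIs were summed per group, scaled to CPM and compared as ratios with exact conditional intervals. Shares have Clopper-Pearson and levels Poisson intervals. Genes with at least 100 UMIs over both groups (500 against all other cells) were measured, and 1.5-fold counted as higher or lower. Genes at 0 are limited by 3 counts. Cell cycle phase came from the CellCycleScoring function (Seurat 5.3.0 under R 4.3.3), run separately on each library with 43 genes of S and 54 of G2M. Clusters used 3000 variable genes without PAGE1, 10 components and resolution 0.5, after regression of phase scores. Symbols were matched to GENCODE on GRCh38 for 5913 of 6095 measured genes, and 4940 matched a RefSeq promoter. Of the genes past 1.5-fold higher, 329 of 436 matched, under 80%, so their motif shares are void and not given.

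Named genes were the 12 highest and 12 lowest ratios among genes that reached 50 CPM in the group where they were higher, with an interval excluding 1 and the same direction in G1, S and G2M cells, without PAGE1, ribosomal protein and mitochondrially encoded genes. Up to 2 members at each end of each list with at least 20 CPM, MAGEA1, KLK3, strain genes and genes within 1 Mb of PAGE1 were added. Other list members named in the text were chosen after their values were seen. Some genes named by this rule are not reported here. Members and the 36 lists were chosen with earlier results of these data known, and 8 further lists after their values were seen. Scripts ran in Python 3.11.15 with numpy 2.4.6, scipy 1.17.1 and pandas 2.3.3, and the ratios were tested on simulated data. Alternatives covered scaling, count filters, group size, thinned depth, the PAGE1 denominator, drawing within phases, the comparison group, per-cell means and the fold. Leaving out cells highest in MALAT1 or in glycolysis and hypoxia genes was added after seeing the data.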

Additional observations from a re-analysis of the deposited data

How the results depend on the processing

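No paired analysis was possible because each line has 1 library and no replicate. As reported, 436 genes were higher and 318 lower in PAGE1-low than in PAGE1-high cells. Higher and lower counts were 838 and 486 at a minimum of 50 UMIs, 78 and 135 at 400, 2878 and 1567 with no filter, 1136 and 1248 at a lower fold limit, and 665 and 613 against all other cells with the filter kept. They were 249 and 137 for cells thinned to equal depth and ranked anew, 218 and 91 without the decile highest in MALAT1, and 247 and 98 without the decile highest in glycolysis and hypoxia genes. Lower genes numbered 557 with median-of-ratios factors, 584 for the lowest and highest 5% of cells, 57 for 20%, 173 with PAGE1 over UMIs without ribosomal protein and mitochondrial genes, and 182 within phases. The TMM factors gave 365 higher and 427 lower. The causes were not tested.

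The G1 share of PAGE1-low cells, 66.5% as reported, was 76.1% at 5% of cells (S 6.52%), 57.8% at 20%, 51.2% in thinned cells (S 18.1%, G2M 30.7%), 51.4% without the MALAT1 decile (G2M 33.0%) and 56.3% without the glycolysis and hypoxia decile (G2M 30.4%). Drawing within phases fixed G1 at 48.9%, S at 21.2% and G2M at 29.9%. Genes per cell after thinning were 3233.5 in PAGE1-low and 3271 in PAGE1-high cells, since fewer UMIs were left. At resolution 0.3, the cluster with most PAGE1-low cells also held 55.7% of PAGE1-high cells, while another held 40.5% of PAGE1-low and 0% of PAGE1-high cells. The list median of neuroendocrine and neuronal markers, 0.90 as reported over 4 genes, was -0.15 at 50 and at 400 UMIs, -0.30 with no filter, -0.43 at 5% of cells, -0.46 in thinned cells, -0.20 against all other cells, -0.21 without the MALAT1 decile and -0.10 without the glycolysis and hypoxia decile. The log2 ratio of MT1X, 2.26 as reported, was -0.12 without the glycolysis and hypoxia decile. Each list was counted once under each alternative. Of the other list medians, 538 changed by less than the median half-width of their members' counting intervals, and 53 changed by more. That band is wide: the WNT pathway list, 0.305 in the full groups and -0.03 without the MALAT1 decile, is among the 538. Counted once under each alternative, 249 of the other single-gene ratios stayed inside the gene's own counting interval and 168 left it.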

Other observations

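Genes of oxidative stress and iron handling, a list added after values had been seen, were mixed in PAGE1-low cells: 4 of 28 were higher and 2 lower than in PAGE1-high cells (median log2 ratio -0.22). Those are 14.3% and 7.14%, beside 7.15% and 5.22% over all genes. HMOX1, heme oxygenase, was at 35.1 CPM in PAGE1-low and 5.05 CPM in PAGE1-high cells (6.95-fold, 4.14 to 12.4), the ferritin light chain gene FTL at 957 and 621 CPM, the autophagy adaptor SQSTM1 at 310 and 196 CPM and GCLC, of glutathione synthesis, at 26.1 and 16.9 CPM. The peroxiredoxin PRDX1 was lower at 875 and 1387 CPM, as was the quinone reductase NQO1 at 97.9 and 157 CPM.

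Lipid and antigen presentation genes also differed within their lists. Of 17 fatty acid synthesis genes, 4 were higher and 0 lower (median 0.20), with SCD, the stearoyl-CoA desaturase, at 274 and 130 CPM (2.11-fold, 1.88 to 2.38), ACSL1 at 112 and 68.3 CPM and TECR at 73.8 and 107 CPM. Of 23 cholesterol synthesis genes, the sterol sensors INSIG1 (155 and 95.6 CPM) and INSIG2 (20.2 and 12.8 CPM) and MSMO1 were higher, and PMVK (49.96 and 82.25 CPM) and EBP (70.1 and 113 CPM) lower. These are 13.0% and 8.70% of its measured genes, beside 7.15% and 5.22% over all genes. HLA-B was at 33.4 and 18.7 CPM, while the proteasome activator PSME2 was at 50.3 and 85.2 CPM and PSMB10 at 62.2 and 91.2 CPM. Among chromatin demethylase genes, KDM6B was at 47.3 and 21.4 CPM (2.21-fold, 1.66 to 2.98) and the hypoxia-induced KDM3A at 27.8 and 15.7 CPM (1.77-fold, 1.24 to 2.54). HES1, a Notch target, was at 51.0 and 24.9 CPM (2.04-fold, 1.56 to 2.70), and HES4 at 169 and 166 CPM.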
